A study of Homo sapiens with 4 samples.

Results

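Doxazosin exposure was examined in CHP134, an established human neuroblastoma cell line, by setting the 2 single-cell RNA sequencing libraries of cells that received the drug beside the 2 libraries of cells that did not. All cells were treated for 24 h. The DMSO library received the vehicle alone (0.04%), the 13cRA library 5 µM 13-cis retinoic acid, the doxazosin library 10 µM doxazosin, and the combination library both drugs at these doses. The 2 libraries with doxazosin held 526 of the 1197 cells kept (239 doxazosin and 287 combination cells), and the 2 without it held 671 (353 DMSO and 318 13cRA cells). Cells had to show 500 or more genes and no more than 25% mitochondrially encoded counts to be kept, and counts were summed over the kept cells of a library and scaled to the library total as CPM. Each treatment has 1 sample of 1 cell line, so no treatment has a replicate of its own. Doxazosin was instead seen against 2 backgrounds, without and with 13cRA, and a gene is described as higher or lower with doxazosin where both libraries with the drug lay on the same side of both libraries without it. This describes the order of 4 libraries and is no test.

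Doxazosin is a quinazoline that blocks α1-adrenergic receptors and is used against hypertension and benign prostatic enlargement. It is also known to inhibit the hERG potassium channel and to bind the ephrin receptor EPHA2, and it slows growth or causes death in several cancer cell lines that do not depend on adrenergic signalling. 13-cis retinoic acid is a differentiating agent used as maintenance therapy in neuroblastoma. The design asks what doxazosin does to these cells alone and on top of the retinoid.

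Counts per cell, though not the library totals, differed in the same direction as the treatment. Summed counts were 48164169 in DMSO, 22636509 in 13cRA, 46171287 with doxazosin and 72192743 with both drugs, and the median cell held 171793 and 221558 counts with doxazosin against 122615 and 59200.5 without it. The 13cRA library stood apart, with the shallowest cells and, after cells were thinned at random to 34000 counts, a median of 3900 detected genes per cell against 4683.5 to 4783 in the others. Cells below 34000 counts were left out of every thinned value: 25 of DMSO, 69 of 13cRA, 4 of doxazosin and 17 of the combination. Thinning therefore matched counts per cell, but neither detected genes nor the number of cells (328, 249, 235 and 270). Of 10 neuroblastoma markers 8 were measured, among them MYCN and GATA3, while the noradrenaline-synthesis genes TH and DBH were near 0 (at most 0.177 CPM). No leukocyte or epithelial marker reached 1 CPM in any library, and the Schwann cell, fibroblast and endothelial markers summed to at most 11, 24.9 and 24.2 CPM, each in the 13cRA library. No cell name was shared between libraries, but the names carry running numbers rather than barcodes, so shared barcodes could not be counted.

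Of 7902 genes with a mean of at least 10 CPM over the 4 libraries, 1336 (16.9%) were above both other libraries in both doxazosin libraries, and 1471 (18.6%) were below. Asking for a gap of at least 0.3 on the log2(CPM + 1) scale between the nearest libraries of the sides left 157 genes above (1.99%) and 248 below (3.14%). Doxazosin minus DMSO and combination minus 13cRA, which share no library, had the same sign in 59.8% of genes and correlated across genes with Pearson's r = 0.262 and Spearman's rho = 0.283. Genes are not independent replicates, so this is a description of these libraries. The correlation was 0.219 among 1947 genes at 10 to 20 CPM and 0.46 among 795 genes above 200 CPM. Differences were smaller without the retinoid, with a median absolute log2 difference of 0.174 against 0.339 with it, and the second of these rests on the shallow 13cRA library.

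**Figure D1:**
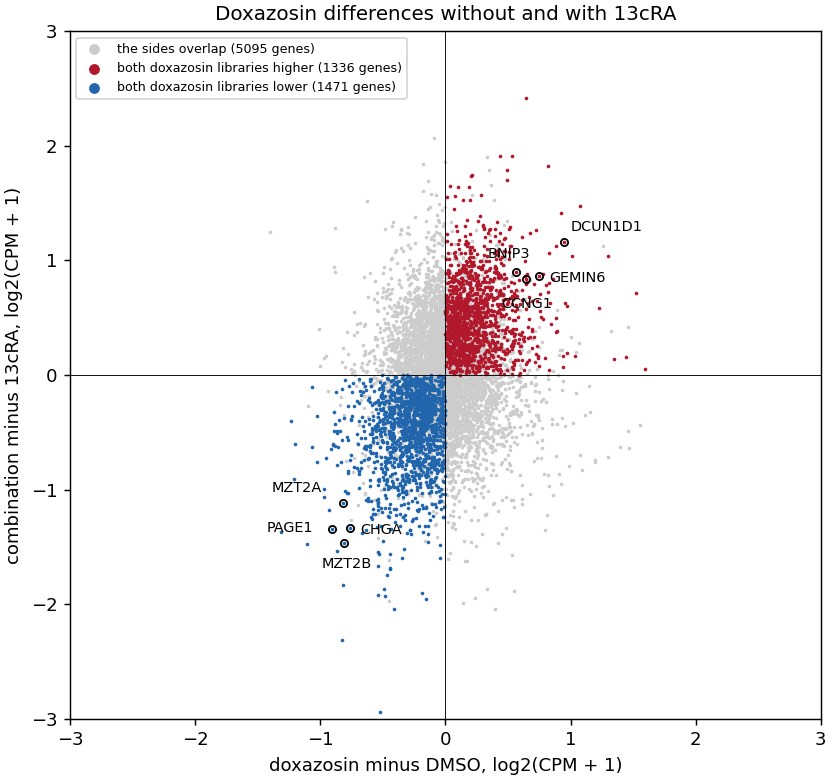
Each point is 1 of 7902 genes, with doxazosin minus DMSO on the horizontal axis and combination minus 13cRA on the vertical axis, both as differences in log2(CPM + 1); 2 genes lie outside the axes. Red and blue mark the 1336 genes higher and the 1471 lower in both doxazosin libraries, and the cloud is wider vertically than horizontally.

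A model with 1 term for 13cRA and 1 for doxazosin was fitted to the summed counts of all genes with edgeR's quasi-likelihood test. Its single residual degree of freedom is the departure from additivity, so an interaction of the drugs and noise between libraries cannot be told apart. At a Benjamini-Hochberg adjusted p under 0.05 it called 0 genes higher (0.0%) and 1 lower (0.0127%), with 858 genes at an unadjusted p under 0.05, and DESeq2 with the same design called 4 higher and 4 lower. The 1 edgeR call, the pseudogene SERPINB9P1, was at 45.5 CPM in 13cRA and at most 0.319 CPM in the other libraries, and its sides overlapped. When the same model was fitted to cells thinned to 34000 counts, it called 52 genes higher (0.658%) and 52 lower (0.658%). Of these 104, 86 did not overlap in the full sums, where 16.9% of all genes were higher and 18.6% lower. Thinned counts are drawn from the full sums, so these 86 are no separate evidence. The same cells without thinning, which leaves out the 115 shallow cells only, gave 2 higher and 3 lower (928 genes at an unadjusted p under 0.05). The spread shared across genes was weighted by 17.1 prior degrees of freedom in the full sums and was taken as common to all genes after thinning. Some of the thinned calls rested on the 13cRA library alone: TUBA1B, an α-tubulin gene, was at 993 CPM in doxazosin against 997 in DMSO, and at 795 in the combination against 288 in 13cRA.

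Base composition moved with doxazosin in both backgrounds. Spearman's rho of transcript GC content with the difference across genes was -0.381 for doxazosin minus DMSO and -0.243 for combination minus 13cRA, against 0.055 for 13cRA minus DMSO. Median GC content was 41.7% in the genes higher with doxazosin, 51.8% in those lower and 45.9% in all genes tested. In the 395 genes of lowest GC content 31.6% were higher and 7.85% lower, whereas in the 395 of highest GC content 2.03% were higher and 44.8% lower. Thinning did not remove the relation (rho = -0.42 and -0.294). After the values of each library were centred within 20 bins of GC content, 984 of the 1336 higher and 1080 of the 1471 lower genes kept their side. In the thinned cells the model with the same centring called 5 genes higher and 3 lower at an adjusted p under 0.05 (edgeR), and 7 of those 8 were among the 104: MLLT11, BNIP3, CCNL2, ZNF514, SERPINB9P1, GAPDH and TUBA1B. FBL, CYCS, SEC23A, VIM and ID1, described below, were among the 104 but not among these 8. Across the full sums and 5 alternatives (thinning, per-cell means, removal of each gene's highest cell, GC centring, and cells with 50000 to 150000 counts only), 417 genes stayed higher and 439 stayed lower.

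**Figure D2:**
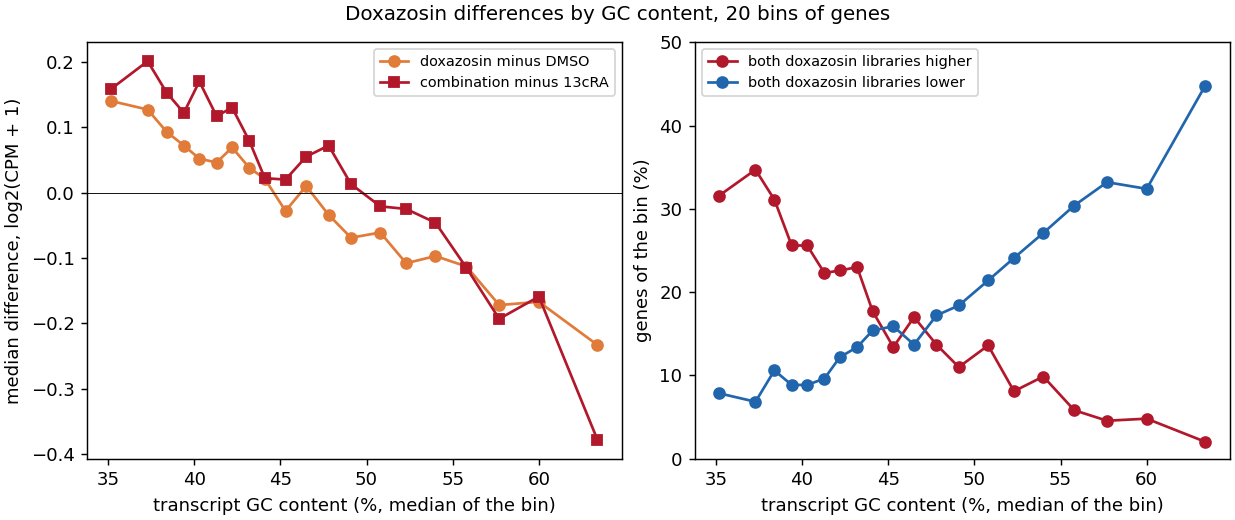
Genes are grouped into 20 bins by transcript GC content (horizontal axis, %). The left panel gives the median difference of each bin in log2(CPM + 1) for both backgrounds, falling from 0.14 and 0.159 to -0.233 and -0.378, and the right panel gives the percentage of genes in each bin that were higher or lower in both doxazosin libraries.

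Among glycolytic and hypoxia-inducible genes the share higher with doxazosin was 36.8% and 36.4%, beside 16.9% of all genes tested; these shares were not tested against each other. Glycolysis splits glucose to pyruvate in the cytosol, and many of its enzymes, together with other hypoxia-inducible genes, are targets of the transcription factor HIF-1. Of 19 measured glycolysis genes (of 21 listed) 7 were higher and 1 lower, and of 11 measured hypoxia-inducible genes outside glycolysis (of 22) 4 were higher and none lower. BNIP3 (ENSG00000176171.11), a mitophagy receptor of the outer mitochondrial membrane, was at 66.8 CPM in DMSO, 50.6 in 13cRA, 99.5 with doxazosin and 95 with both drugs. Both doxazosin libraries lay well above both others, with exact 95% Poisson intervals, which cover counting error only, of 96.6 to 102 and 92.8 to 97.3 CPM against 64.5 to 69.1 and 47.7 to 53.6 CPM. BNIP3 had a log2 fold change of 0.74 (SE 0.19) in the thinned fit, with an adjusted p of 0.0185, and of 0.0435 with GC centring as well (edgeR; 0.334 in the full sums).

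The promoters of BNIP3, ALDOC and PGK1 are shown because these genes were higher in both backgrounds and hold several matches to the HIF-1 core motif. That of PDK1 is shown because PDK1 was higher as well and holds none in the stretch searched. Each runs from 250 bases before to 50 after the start of the gene in RefSeq (GRCh38.p14), and capitals mark every ACGTG or GCGTG on either strand, so that CACGT and CACGC are in capitals too. The palindrome CACGTG, the E-box bound by MYC family proteins, contains a match on both strands. BNIP3 is at chr10:131981874-131982173 (minus strand), ALDOC at chr17:28576846-28577145 (minus strand), PGK1 at chrX:78103998-78104297 (plus strand) and PDK1 at chr2:172555123-172555422 (plus strand).
BNIP3: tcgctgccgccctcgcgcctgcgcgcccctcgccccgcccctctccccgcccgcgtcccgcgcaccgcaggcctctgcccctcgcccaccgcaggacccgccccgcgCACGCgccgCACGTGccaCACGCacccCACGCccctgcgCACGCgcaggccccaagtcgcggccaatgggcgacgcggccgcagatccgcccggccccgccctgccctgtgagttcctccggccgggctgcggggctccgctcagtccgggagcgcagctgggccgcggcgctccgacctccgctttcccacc
ALDOC: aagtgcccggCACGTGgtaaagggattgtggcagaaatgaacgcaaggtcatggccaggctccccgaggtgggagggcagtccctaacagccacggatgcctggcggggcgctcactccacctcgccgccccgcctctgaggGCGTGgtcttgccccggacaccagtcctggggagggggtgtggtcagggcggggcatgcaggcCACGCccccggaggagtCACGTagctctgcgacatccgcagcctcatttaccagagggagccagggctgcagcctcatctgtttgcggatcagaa
PGK1: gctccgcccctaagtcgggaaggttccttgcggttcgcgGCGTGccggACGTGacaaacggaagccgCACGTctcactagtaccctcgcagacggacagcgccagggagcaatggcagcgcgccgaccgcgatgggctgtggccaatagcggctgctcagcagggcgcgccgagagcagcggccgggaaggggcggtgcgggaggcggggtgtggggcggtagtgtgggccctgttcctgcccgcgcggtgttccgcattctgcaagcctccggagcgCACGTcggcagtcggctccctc
PDK1: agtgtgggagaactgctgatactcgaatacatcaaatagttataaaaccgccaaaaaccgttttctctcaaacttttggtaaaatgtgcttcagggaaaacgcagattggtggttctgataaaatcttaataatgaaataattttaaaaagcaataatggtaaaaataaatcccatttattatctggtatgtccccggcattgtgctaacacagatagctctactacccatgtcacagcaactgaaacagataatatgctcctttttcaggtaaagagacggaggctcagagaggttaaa
BNIP3 has 6 matches, ALDOC 5 and PGK1 4. ERO1A, also higher, has 3. Genes of these lists whose sides overlapped were as rich, with 6 matches in LDHA, 4 each in DDIT4 and LOX, and 3 in HK2. Among 29 measured glycolysis and hypoxia genes found in the promoter table, 8 of the 11 that were higher with doxazosin held at least 1 match, as did 13 of the other 18. Of all 27305 promoters of this length 48.4% held 1 or more and 10.2% held 3 or more. A match is a run of letters and not a measured binding site.

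ALDOC, an aldolase isoform of brain, was at 70.5 CPM in DMSO, 97.8 in 13cRA, 101 with doxazosin and 128 with both drugs. Its sides were close, since the 13cRA library nearly reached the doxazosin library. PGK1, the phosphoglycerate kinase that yields the first ATP of the pathway, was at 871, 588, 971 and 934 CPM in the same order. PDK1, which restrains pyruvate entry into mitochondria, was at 19.5, 10.8, 23.5 and 19.6 CPM, so DMSO and the combination were level. PFKFB3, which makes the allosteric activator of phosphofructokinase, was at 14.4, 12.9, 19.1 and 24.8 CPM, with up to 32.7% of a library's counts from 1 cell. P4HA1, a collagen prolyl hydroxylase, was at 30.8, 26.8, 35.0 and 41.1 CPM, and HIF1A itself at 213, 166, 251 and 234 CPM. For these 6 genes the adjusted p of the doxazosin term was 0.435 to 0.574 in the full sums and 0.115 to 0.607 after thinning (edgeR). GAPDH overlapped, at 3482 CPM in DMSO, 1419 in 13cRA, 3763 with doxazosin and 2959 with both drugs. The median of the mean difference over both backgrounds was 0.198 for glycolysis and 0.301 for the other hypoxia genes, against 0.009 for all genes tested. By background the glycolysis median was 0.112 without and 0.388 with 13cRA, and it was 0.02 when the 13cRA library was left out and 0.42 when DMSO was. The hypoxia median was 0.13 to 0.19 with any 1 library left out and 0.14 without each gene's highest cell. Their GC content does not run in 1 direction: the glycolysis median was 53.3%, and after GC centring 10 of 19 were higher, while that of the hypoxia genes was 42.5%, and 3 of 11 were. Among cells with 50000 to 150000 counts, a common range of counts per cell, the median of the hypoxia list was -0.07.

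Of 35 measured nuclear subunits of oxidative phosphorylation 9 were higher (25.7%) and 4 lower (11.4%), beside 16.9% and 18.6% of all genes tested. The list median was 0.034 for doxazosin minus DMSO and 0.192 for combination minus 13cRA. SDHC and SDHD, the membrane anchors of succinate dehydrogenase, were at 93.3 and 55.5 CPM in DMSO, 49.1 and 29.6 in 13cRA, 104 and 70.0 in doxazosin, and 122 and 64.5 in the combination. Their distance was mostly set by the low 13cRA library, with doxazosin minus DMSO at 0.15 and 0.33 and combination minus 13cRA at 1.30 and 1.10 on the log2 scale. CYCS, cytochrome c, was at 427 CPM in DMSO, 284 in 13cRA, 598 with doxazosin and 513 with both drugs, without overlap, and its adjusted p was 0.0152 after thinning and 0.334 before (edgeR). None of the 13 mitochondrially encoded mRNAs was higher and 3 were lower (23.1%, near the 18.6% of all genes tested), with a median of 0.05 for doxazosin minus DMSO and -0.678 for combination minus 13cRA. These mRNAs summed to 86979 CPM in 13cRA and to 55134 to 57181 CPM in the other 3 libraries, so the second value rests on 1 library. In the pentose phosphate and glutathione list 5 of 17 were higher (29.4%) and 3 lower (17.6%). PRDX3, a mitochondrial peroxiredoxin, was at 114 CPM in DMSO, 51.2 in 13cRA, 141 with doxazosin and 125 with both drugs, and PGLS, the lactonase of the pentose phosphate pathway, at 38.7, 34.0, 18.5 and 26.3 CPM. PGLS overlapped after GC centring.

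Among iron genes 4 of 7 measured were higher (57.1%, beside 16.9% of all genes tested) and none lower. The list median was 0.035 for doxazosin minus DMSO and 0.465 for combination minus 13cRA, and that of the mean of both was 0.246, or 0.08 without the 13cRA library. They were IREB2, an iron-responsive mRNA-binding protein, FTL, the ferritin light chain, SLC11A2, an iron importer, and NCOA4, the receptor for autophagy of ferritin. FTL was at 883 CPM in DMSO, 850 in 13cRA, 905 with doxazosin and 1173 with both drugs, so that only the combination stood apart. The differences between doxazosin and DMSO were small, from 0.00 to 0.19 on the log2 scale for these 4. After GC centring 2 of the 7 were higher.

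Vesicle transport genes of the Golgi list were higher in 8 of 29 (27.6%) and lower in 3 (10.3%), beside 16.9% and 18.6% of all genes tested, with a median of 0.153. That median was 0.06 without 13cRA, 0.08 without doxazosin, 0.35 without DMSO and 0.05 among cells with 50000 to 150000 counts. SEC23A, a coat subunit of vesicles leaving the endoplasmic reticulum, was at 40.2 CPM in DMSO, 15.4 in 13cRA, 56.9 with doxazosin and 52.3 with both drugs, with an adjusted p of 0.0104 after thinning (edgeR; 0.334 in the full sums). SEC24D, another subunit of this coat, was at 22.4, 17.7, 38.9 and 25.6 CPM. SEC23A differed more with 13cRA than without it. SLC35B3 and TRIM23 had high doxazosin levels (34.0 and 25.2 CPM against 10.6 and 9.3 in DMSO), but 1 cell gave up to 46.4% and 47.0% of a library's counts, and their combination levels of 13.7 and 16.8 CPM barely exceeded the 13cRA levels of 13.2 and 15.2 CPM. In the autophagy list 3 of 15 were higher (20%) and none lower, with a median of -0.018. GABARAPL2, an ATG8-family protein, was at 196, 178, 238 and 241 CPM, and ATG12, a conjugated autophagy protein, at 78.2, 69.9, 93.9 and 90.7 CPM. The lysosome list had 2 of 21 higher (9.52%) and 5 lower (23.8%), and its members LAMP1 and LAMP2, both lysosomal membrane glycoproteins, went opposite ways: LAMP1 was at 29, 50.6, 18.8 and 26.3 CPM, and LAMP2 at 19.0, 20.1, 25.2 and 22.0 CPM.

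**Figure D3:**
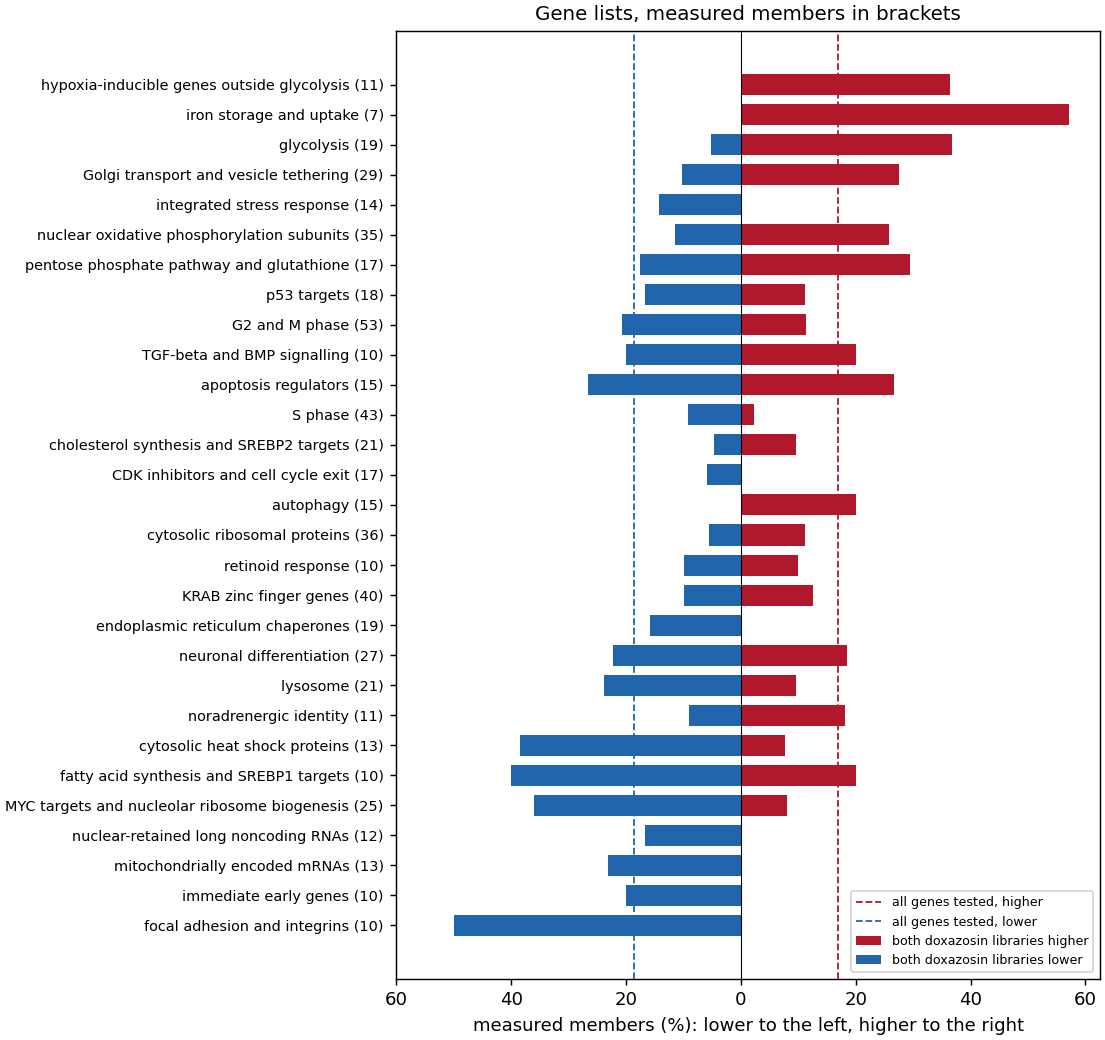
Bars give, for 29 gene lists with at least 5 measured members (number in brackets), the percentage of measured members that were higher (right, red) or lower (left, blue) in both doxazosin libraries, ordered by the median mean difference. Dashed lines give the same shares for all 7902 genes, 16.9% and 18.6%; hypoxia, iron, glycolysis and Golgi genes are at the top, and focal adhesion genes at the bottom.

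Of 25 measured MYC targets and nucleolar genes of ribosome assembly 9 were lower (36.0%, beside 18.6% of all genes tested) and 2 higher, with a median of -0.118. FBL, fibrillarin, the methyltransferase of ribosomal RNA, was at 270 CPM in DMSO, 497 in 13cRA, 217 with doxazosin and 242 with both drugs, with a log2 fold change of -0.74 (SE 0.17) and an adjusted p of 0.0103 after thinning (edgeR; 0.334 in the full sums). NCL, nucleolin, was at 1293, 1433, 1040 and 999 CPM, and NOP56, a core protein of the same snoRNP as fibrillarin, at 326, 365, 288 and 246 CPM. All 3 lay lower in both doxazosin libraries, also after GC centring, but for NCL and NOP56 the adjusted p was 0.0934 and 0.276 after thinning (edgeR). With GC centring as well as thinning the fit no longer called FBL. FBL differed more with 13cRA than without it. MYCN, the amplified oncogene of this line, overlapped, at 760 CPM in DMSO, 1168 in 13cRA, 759 with doxazosin and 815 with both drugs. Cytosolic ribosomal proteins were near the middle, with 4 of 36 higher (11.1%) and 2 lower (5.56%), beside 16.9% and 18.6% of all genes tested.

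Cytosolic heat shock proteins were lower in 5 of 13 (38.5%, beside 18.6% of all genes tested) and higher in 1. Their median was -0.108, and -0.03 without the combination library or with a minimum of 20 CPM. HSP90AA1, the inducible HSP90, was at 6240 CPM in DMSO, 7588 in 13cRA, 5456 with doxazosin and 5430 with both drugs, HSPH1, a nucleotide exchange factor of HSP70, at 372, 496, 334 and 339 CPM, and HSF1, the transcription factor of the heat shock response, at 13.2, 15.1, 10.2 and 7.13 CPM. None of 14 integrated stress response genes and none of 19 endoplasmic reticulum chaperones was higher, and 2 (14.3%) and 3 (15.8%) were lower, which is below the share of all genes. The integrated stress response median was 0.096, and 6 members were above and 4 below in both backgrounds taken separately. ATF4, the effector of the integrated stress response, was at 340 CPM in DMSO, 421 in 13cRA, 295 with doxazosin and 276 with both drugs. For none of these 4 genes did the doxazosin term pass 0.05 in either fit (edgeR, adjusted p 0.442 to 0.464 in the full sums and 0.173 to 0.349 after thinning).

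Adhesion genes were lower in 5 of 10 (50.0%, beside 18.6% of all genes tested) and higher in none, with a median of -0.379. The median was -0.152 for doxazosin minus DMSO and -0.456 for combination minus 13cRA, and that of the mean was -0.12 without the 13cRA library and -0.19 with no cell filter. The tyrosine kinase SRC was at 24.8 CPM in DMSO, 44.4 in 13cRA, 17.9 with doxazosin and 18.3 with both drugs, the matrix glycoprotein THBS3 at 32.1, 33.4, 16.7 and 21.6 CPM, and the integrin subunit ITGAV at 16.2, 27.5, 14.9 and 13.1 CPM. Talin (TLN1), which links integrins to actin, was at 68.1, 89.5, 50.7 and 64.1 CPM and overlapped after GC centring. Of 4 measured mesenchymal genes (of 22), only VIM, vimentin, did not overlap: it was at 366, 404, 294 and 235 CPM, with an adjusted p of 0.0192 after thinning and 0.373 before (edgeR). Immediate early genes had a median of -0.374, with 2 of 10 lower, and IER2 was at 11.9, 15.4, 7.62 and 5.83 CPM. This median rests on the second background, since it was -0.017 for doxazosin minus DMSO, and it was 0.13 without the 13cRA library. All 3 measured members of the VEGF and PGF family list (of 10) were lower, namely PGF, VEGFB and NRP2. PGF, placental growth factor, was at 24.3 CPM in DMSO, 10.2 in 13cRA, 9.79 with doxazosin and 7.49 with both drugs, so that it was low wherever either drug was present, and after GC centring none of the 3 kept its side. ID1, a BMP-induced inhibitor of differentiation, was stepped, at 125, 72.2, 71.4 and 35.3 CPM. The 13cRA and doxazosin libraries were level for ID1, and its adjusted p was 0.0123 after thinning and 0.286 before (edgeR).

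Among the 12 genes highest by the gap between the nearest libraries were GEMIN6, BTRC, CCNG1, DCLK1, RAD17, DCUN1D1, SCAMP1, LINC02525, EFCAB2, ARMCX3 and RNF121, and the gaps of the 12 were 0.51 to 0.7 on the log2(CPM + 1) scale. They were chosen for this gap, so their values are a description. CCNG1 (ENSG00000113328.19), cyclin G1, a p53 target, was at 138 CPM in DMSO, 131 in 13cRA, 216 with doxazosin and 234 with both drugs. The libraries formed 2 pairs, and in the thinned cells CCNG1 was at 148, 118, 206 and 229 CPM. GEMIN6, a member of the SMN complex that assembles splicing snRNPs, was at 55.9, 57.8, 94.3 and 106 CPM, with up to 24.0% of a library's counts from 1 cell. DCUN1D1, which promotes neddylation of cullin ubiquitin ligases, was at 30.8, 19.9, 60.3 and 45.7 CPM.

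RAD17, the loader of the DNA damage checkpoint clamp, was at 27.8 CPM in DMSO, 34.4 in 13cRA, 55.5 with doxazosin and 52.7 with both drugs. DCLK1, a microtubule-associated doublecortin-like kinase, was at 22.8, 19.1, 39.9 and 36.0 CPM, and SCAMP1, a carrier protein of secretory vesicles, at 55.6, 54.8, 80.9 and 84.6 CPM. For these 3 the doxazosin and combination libraries were nearly level and both others lay below. BTRC, the substrate receptor of an SCF ubiquitin ligase, was at 18.4, 21.3, 34.7 and 47.6 CPM, but 1 cell gave up to 57.8% of a library's counts, and among cells of 50000 to 150000 counts its mean difference was -0.07. Of the 12 genes, 7 had more than 20% of a library's counts from 1 cell, as did 19.7% of all genes tested. Without the highest cell of each library all 12 kept their side, as they did after GC centring, and 11 did after thinning (ARMCX3 overlapped). Among cells with 50000 to 150000 counts 9 did, and BTRC, ARMCX3 and RNF121 overlapped. Of all 1336 higher genes 1040 kept their side without the highest cell, 984 after GC centring and 1019 after thinning.

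Of 18 measured p53 targets 2, CCNG1 and MDM2, were higher (11.1%) and 3 lower (16.7%), beside 16.9% and 18.6% of all genes tested. MDM2, the ubiquitin ligase of p53, was at 57.3 CPM in DMSO, 60.8 in 13cRA, 72.9 with doxazosin and 67.2 with both drugs, while BAX, a pore-forming death protein, was at 23.1, 24.2, 18.3 and 18.5 CPM, and AEN, an apoptosis-enhancing nuclease, at 71.1, 53.3, 50.9 and 42.3 CPM. CDKN1A, the p53-induced inhibitor of cyclin-dependent kinases, overlapped, at 73.1, 49.9, 86.4 and 61.3 CPM. It was 0.24 and 0.29 higher with doxazosin within each background on the log2 scale, and 1 cell gave up to 41.9% of a library's counts. Apoptosis regulators were split, with 4 of 15 higher (26.7%), CYCS among them, and 4 lower (26.7%). Among the lower ones was BAD, a death-promoting BCL2-family protein, at 16.1, 26.8, 13.6 and 11.3 CPM.

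At the other end were PAGE1, MZT2A, CCDC124, LRRFIP1, BUD13, CHGA, ZMYND19, MZT2B, TSEN54, NFATC2IP, HNRNPM and CCNE1, with gaps of 0.54 to 0.91. PAGE1, a cancer-testis antigen gene, was at 98.7 CPM in DMSO, 108 in 13cRA, 52.2 with doxazosin and 41.9 with both drugs. MZT2A and MZT2B, which encode subunits of the γ-tubulin ring complex, were at 44.9 and 56.8 CPM in DMSO, 53.4 and 108 in 13cRA, 25.1 and 31.9 in doxazosin, and 24.0 and 38.5 in the combination. They are near-identical copies, so how the counting split their reads is uncertain, and they are not independent of each other. CHGA (ENSG00000100604.13), chromogranin A, a protein of neuroendocrine secretory granules, was at 25.9, 44.1, 14.8 and 16.9 CPM.

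The CHGA libraries with doxazosin lay below both others, with Poisson intervals of 13.7 to 16.0 and 15.9 to 17.8 CPM against 24.5 to 27.4 and 41.4 to 47.0 CPM. HNRNPM, a splicing regulator, was at 244 CPM in DMSO, 255 in 13cRA, 167 with doxazosin and 152 with both drugs, and CCDC124, a ribosome-associated protein, at 117, 112, 68.7 and 69.1 CPM. BUD13, a spliceosome subunit, was at 28.1, 29.7, 17.1 and 15.9 CPM, and CCNE1, cyclin E1, which drives entry into S phase, at 34.7, 42.9, 23.6 and 22.2 CPM. Each of the 12 kept its side after thinning, without its highest cell and after GC centring, but among cells with 50000 to 150000 counts PAGE1 (-0.53), MZT2B (-0.77) and TSEN54 (-0.47) overlapped. Of all 1471 lower genes 1068 kept their side after thinning, 1302 without the highest cell and 1080 after GC centring. The 12 were chosen for the widest gap in the same counts, which makes a change of side less likely. None of the 12 had more than 20% of a library's counts from 1 cell. Their median GC content was 58.1%, against 42.6% for the 12 highest. Adjusted p-values of the doxazosin term in the full sums were 0.183 to 0.378 for the 12 lowest and 0.286 to 0.388 for the 12 highest (edgeR). After thinning 8 and 5 of them passed 0.05, beside 0.658% of all genes tested in each direction. These genes were chosen for their gap in the same counts, so the calls are no separate evidence. None of the thinned calls that stayed with GC centring as well was among them.

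**Figure D4:**
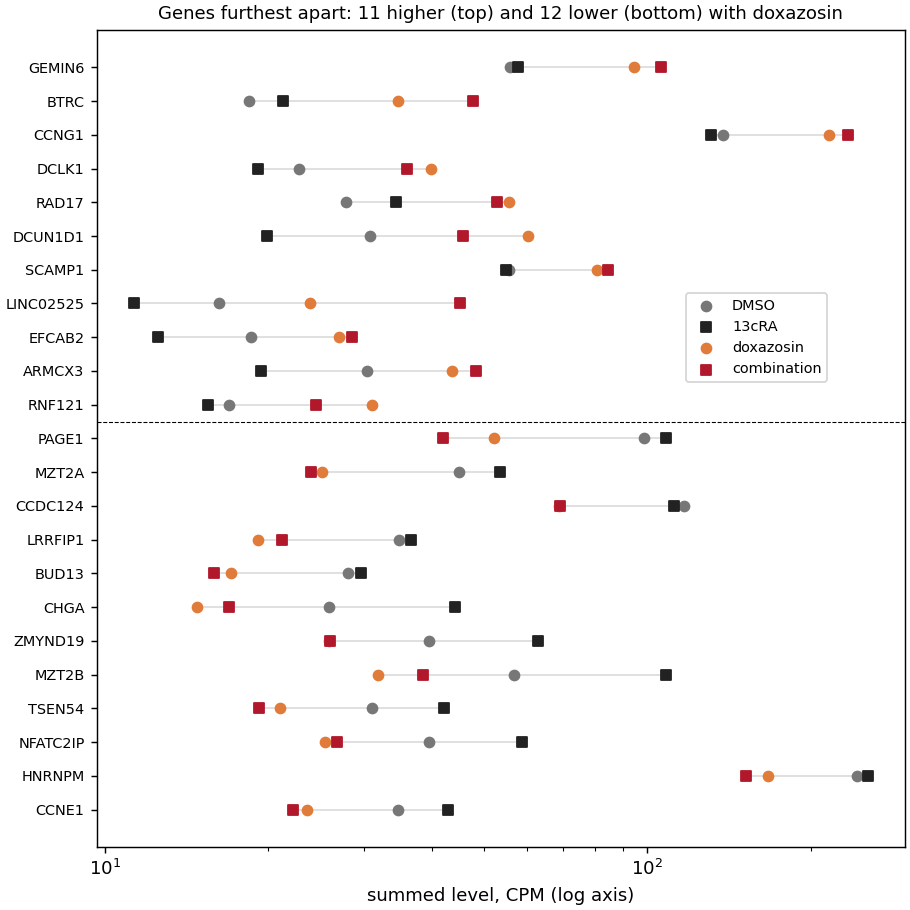
Summed level in CPM (log axis) of 11 of the 12 genes with the widest gap above and the 12 with the widest gap below, 1 point per library, with circles for libraries without 13cRA, squares for those with it, and orange and red for doxazosin. Both doxazosin libraries lie to the right of both others in the upper block and to the left in the lower block, as the choice of genes requires; for CCDC124 and ZMYND19 the combination point covers the doxazosin point.

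Neuronal genes were split, with 5 of 27 higher (18.5%) and 6 lower (22.2%), near the 16.9% and 18.6% of all genes tested. Besides CHGA, ELAVL3, a neuronal RNA-binding protein, was at 18.6 CPM in DMSO, 23.5 in 13cRA, 11.7 with doxazosin and 10.7 with both drugs, while SNAP25, a SNARE protein of synaptic vesicle fusion, was at 29.4, 12.4, 32.5 and 37.6 CPM. SNAP25 was set apart mainly by its low 13cRA level. MLLT11, which had the lowest adjusted p among genes without overlap after thinning, was at 421, 219, 555 and 533 CPM, with a log2 fold change of 0.82 (SE 0.17) and an adjusted p of 0.00412, or 0.00414 with GC centring as well (edgeR; 0.326 in the full sums). MLLT11 differed more with 13cRA than without it. The retinoid response list showed 1 of 10 higher (10.0%) and 1 lower (10.0%) with doxazosin. In the noradrenergic list 2 of 11 were higher (18.2%) and 1 lower (9.09%).

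Cell cycle lists did not hold 1 direction across backgrounds. S phase genes had a median of -0.151 for doxazosin minus DMSO and 0.198 for combination minus 13cRA. Of 43, 1 was higher (2.33%) and 4 were lower (9.3%). G2 and M phase genes had medians of -0.104 and 0.191, with 6 of 53 higher (11.3%) and 11 lower (20.8%). Among all genes tested 16.9% were higher and 18.6% lower. NASP, a histone chaperone, was at 744 CPM in DMSO, 968 in 13cRA, 612 with doxazosin and 589 with both drugs, and GTSE1, a G2 and M phase microtubule protein, at 49.0, 53.5, 32.8 and 38.2 CPM. CDK1, the mitotic kinase, was on the other side, at 123, 65.0, 162 and 127 CPM, so that DMSO and the combination were nearly level. MKI67 overlapped, at 96.3, 158, 110 and 99.6 CPM.

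Sterol and lipid genes showed no common direction. Of 21 cholesterol synthesis genes 2 were higher (9.52%) and 1 lower (4.76%), beside 16.9% and 18.6% of all genes tested. Their median was 0.01. HMGCS1, the HMG-CoA synthase, overlapped at 198 CPM in DMSO, 84.1 in 13cRA, 230 with doxazosin and 157 with both drugs. In the fatty acid list 4 of 10 were lower and 2 higher, and the desaturase genes FADS1 and FADS2 were at 314 and 16.9 CPM in doxazosin and 329 and 17.9 in the combination, against 367 and 25.2 in DMSO and 386 and 21.2 in 13cRA.

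Genes for most known targets of the drug, though not KCNH2, had few counts. The receptors it blocks, encoded by ADRA1A, ADRA1B and ADRA1D, were at no more than 0.152 CPM in any library, and EPHA2 at no more than 0.398 CPM. For ADRA1D the count was 0 in DMSO and 13cRA, which allows up to 0.0623 and 0.133 CPM. KCNH2, which encodes the hERG channel, was the only 1 of 13 doxazosin-binding proteins measured, at 24.3 CPM in DMSO, 22.4 in 13cRA, 36.4 with doxazosin and 15.1 with both drugs. In the full sums KCNH2 was highest with doxazosin alone and lowest with both drugs, and 38.9% of its doxazosin counts came from 1 cell. After thinning both doxazosin libraries lay below both others, with a mean difference of -0.578 against 0.015 in the full sums.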

How the data were processed

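The deposited table holds raw whole-number read counts per gene and cell, per the values and the submitters' processing notes, which name STAR 2.7.8a and featureCounts beside bcl2fastq, Seurat 4.3.0 and fastp 0.23.3. The notes name GRCh38.p13 and GRCh37 with no role. Annotation release, strandedness and treatment of reads shared between genes were not given in the sources used here. Per the labels' protocols, live single cells of the 4 suspensions were dispensed on an ICELL8 chip and full-length libraries were amplified; no molecular identifiers are named, and counting intervals do not cover amplification. Of 1287 cells 1197 were kept and summed per library, so deep cells weigh more; no doublet caller was run. Symbols matched 60437 gene IDs and not 214. Columns of samples outside the series numbered 0.

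Differences are of log2(CPM + 1), over genes with a mean of at least 10 CPM. The additive model used edgeR 4.0.16 (R 4.3.3) with library-size scaling and adjusted p-values over all genes tested. DESeq2 1.42.0 was an alternative. The model was also run on simulated counts. These held no interaction of the drugs and no trend of the doxazosin term with GC content, so that run does not cover either. With 1 sample per treatment, p-values set the doxazosin term against the departure of the 4 libraries from additivity, which may be technical. GC content is that of GENCODE 29 transcripts, matched to 99.9% of genes. Named genes were the 12 with the widest gap on each side (mean of at least 20 CPM, the same side in per-cell means), up to 4 per list, fixed drug targets, and calls of the fits; some of these are not reported here. The members, 33 gene lists and 6 marker lists were chosen with earlier results of these data known.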

Additional observations from a re-analysis of the deposited data

Results flagged for a closer look

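The following values had opposite signs in the 2 backgrounds, given as doxazosin minus DMSO and then combination minus 13cRA on the log2(CPM + 1) scale; in each case the difference between backgrounds was not tested. The S phase median was -0.15 and 0.2, and the G2 and M phase median -0.1 and 0.19. For CDK inhibitors and cell cycle exit genes the medians were 0.14 and -0.2, and for nuclear-retained long noncoding RNAs 0.12 and -0.53. KCNH2 was at 0.57 and -0.54 in the full sums, though after thinning it was lower with doxazosin in both backgrounds. MKI67 was at 0.19 and -0.66. All of the second values involve the 13cRA library, which was the shallowest and had the highest sum of mitochondrially encoded mRNAs.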

How the results depend on the processing

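Each treatment has 1 library, the libraries differ in depth per cell, and no molecular identifiers are named, so small differences at 10 to 20 CPM are the least certain. Of the values for the whole table under an alternative, 67 stayed within 1.5 times (counts) or the margin set for shares and correlations, and the 57 that did not are given below as values or ranges. The 24 genes of widest gap were chosen for that gap in the same counts. Leaving out 1 library, or adding 5 in place of 1 CPM before the logarithm, cannot change their side. The same side in per-cell means was a condition of the choice, so the values of these settings were fixed in advance. With them included, 329 values kept their side, 6 overlapped (ARMCX3 after thinning at 0.36, and ARMCX3, RNF121, PAGE1, MZT2B and TSEN54 among cells with 50000 to 150000 counts) and 1 reversed (BTRC, -0.07 in that window). The alternatives that leave out each gene's highest cell, centre values within GC bins, centre thinned cells, or keep the thinned cells' full counts were added after seeing the data; the cause of these changes was not tested, beyond the fit to unthinned cells below.

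Leaving out 1 library at a time removes a condition that a gene must meet, and gave 2331 to 3348 genes above, 2415 to 3029 below, 388 to 1703 above and 564 to 1491 below with a gap of 0.3; the lowest and highest of the gap counts came without 13cRA and without DMSO. Without a minimum level 2933 genes were above and 5047 below, and 366 and 792 with the gap. With the gap, 102 were above without each gene's highest cell, and 139 below after GC centring and 142 below at 20 CPM or more. Pearson's r between backgrounds was 0.35 with per-cell means, 0.33 thinned, 0.234 with no cell filter, 0.351 without the highest cell, 0.188 after GC centring, 0.287 at 20 CPM or more and 0.111 with no minimum; Spearman's rho was 0.363, 0.346, 0.359 (highest cell), 0.22 (GC), 0.305 (20 CPM) and 0.129 (no minimum). The same sign was seen in 63.2% (per-cell), 62.7% (thinned), 58.6% (GC) and 53.4% (no minimum) of genes.

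The additive fit moved most. Genes higher and lower numbered 52 and 52 thinned, 61 and 48 among cells with 50000 to 150000 counts, 31 and 38 with no cell filter, 4 and 4 with DESeq2, 2 and 3 among cells with at least 34000 counts without thinning, 20 and 9 after GC centring, and 5 and 3 with both thinning and GC centring; 2 were lower with TMM factors, and 0 at 20 CPM or more or with no 13cRA term. List medians of the mean difference that had 1 sign in both backgrounds changed it as follows. Hypoxia genes were at -0.07 among cells with 50000 to 150000 counts. Immediate early genes were at 0.13 without 13cRA (range over omitted libraries -0.83 to 0.13). Apoptosis regulators were at -0.03 with per-cell means, -0.05 thinned, -0.1 without 13cRA, -0.02 without doxazosin (0.19 without DMSO) and -0.17 with no minimum. TGF-beta genes were at -0.17 in the window, -0.11 without DMSO (0.14 without 13cRA) and -0.19 with no minimum. Retinoid genes were at 0.05 after GC centring, 0.35 without 13cRA, 0.38 without doxazosin (-0.65 without the combination) and 0.06 at 20 CPM or more. Neuronal genes were at 0.04 with no cell filter and 0.02 without 13cRA (-0.21 without the combination). Ribosomal proteins were at 0.01 with no cell filter, 0.02 after GC centring, 0.08 without 13cRA and 0.07 without doxazosin (-0.18 without DMSO). In 16 other lists 51 medians changed sign, such as the integrated stress response (0.1, from -0.07 to 0.19 over 16 alternatives), S phase (0.02, from -0.28 to 0.35), G2 and M phase (0.05, from -0.12 to 0.32), cholesterol synthesis (0.01, from -0.13 to 0.11) and autophagy (-0.02, from -0.06 to 0.16); 10 lists changed sign nowhere. The additive model compares libraries within each 13cRA background; a further block by replicate was not possible, since each treatment has 1 sample.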
